A study of Mus musculus with 4 samples.

Results

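In NIH/3T3 cells, a line of immortalised mouse fibroblasts, 10 genes of the KAP1, HP1 and H3K9 silencing machinery were followed after knockdown of *Setd2*. They were *Trim28*, *Setdb1*, *Atf7ip*, *Cbx1*, *Cbx3*, *Cbx5*, *Mphosph8*, *Suv39h1*, *Ehmt1* and *Ehmt2*, taken by gene symbol from the deposited transcript table. All 10 were present, with 27 of the 34200 transcripts and 10 of the 21945 genes in the table. The GENCODE M21 annotation lists 87 transcripts of the 10 genes, so only part of them were tested. Below, the share of a gene's counts and the dominant isoform refer to its tested transcripts only. The knockdown (KD) group was transfected with *Setd2*-specific siRNA and the control (WT) group with Scrambled, non-targeting siRNA, so that every library came from transfected cells. The siRNA was used at a final concentration of 10 nM and polyadenylated RNA was taken 48 h after transfection, with 2 libraries in each group. The study co-transfected its *Setd2* siRNAs, so an effect of a single siRNA cannot be told apart from that of the knockdown, and the population was that of 1 cell line.

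Methylation of histone H3 at lysine 9 (H3K9) marks silent chromatin. KAP1, encoded by *Trim28*, is brought to retroelements and other targets by KRAB zinc finger proteins and recruits the methyltransferase SETDB1, which works with its cofactor ATF7IP. Methylated H3K9 is bound by the chromodomains of HP1 proteins and of MPP8, while SUV39H1 methylates H3K9 at pericentromeric repeats and GLP with G9a does so in euchromatin. SETD2 places a different mark, trimethylation of H3K36, in the bodies of transcribed genes.

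The values used were pooled over the libraries: for each transcript, the authors' mean over 4 libraries and their variances over all libraries and within groups, on the natural log scale of normalised estimated counts. Values of single libraries were not used, so depth is unknown. From the variances, the size of the difference between the KD and WT means was computed and tested, but its direction was not analysed here. The sizes below are therefore unsigned, in log2 units, and carry a 95% confidence interval. A transcript passed the test at an adjusted p under 0.05. The p-values rest only on the spread between 2 libraries a group and on variance borrowed from other transcripts along a trend on level. The series' design text speaks of 3 independent transfections, but how the libraries map to them is not given in the sources used here, so that spread may be technical in part.

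The single tested *Setd2* transcript had a mean of 1844 normalised estimated counts and differed by 1.99 log2 units (interval 1.78 to 2.21, adjusted p = 0.0144), a 3.98-fold difference. Its adjusted p was 0.0537 without the trend of variance on level and 0.103 with no borrowing of variance between transcripts, so that it did not pass in either setting. The fibroblast markers *Col1a1*, *Col1a2*, *Vim*, *Fn1* and *S100a4* lay between 137580.0 and 323250.0 normalised estimated counts, and *Pdgfrb* and *Thy1* at 3083 and 4848. Of the 8 epithelial, blood and endothelial markers, *Epcam* and *Krt18* had no tested transcript and the other 6 lay between 22.5 for *Krt8* and 343 for *Cd68*.

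Of the 27 transcripts, 4 passed the test, where 9.68% of all transcripts did. They were 1 transcript each of *Cbx1* and *Cbx3*, which encode the HP1 proteins HP1β and HP1γ, and of *Ehmt1* and *Ehmt2*, which encode GLP and G9a. Their differences lay between 1.35-fold for *Ehmt2* and 1.53-fold for *Cbx1*, against 3.98-fold for *Setd2*. No transcript of *Trim28*, *Setdb1*, *Atf7ip*, *Cbx5*, *Mphosph8* or *Suv39h1* passed. In the same test 11 of the 27 had an unadjusted p under 0.05, and so had 9656 of all 34200. Among transcripts with a level of at least 1000, 9 of 16 had such a p, against 4392 of all 9010. All 4 calls rested on variances borrowed along a trend on expression level: without that trend, or with no borrowing at all, none of the 27 passed.

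The variances also fix, for many transcripts, whether the KD and WT libraries overlapped. A size above the square root of 2 times the residual standard deviation leaves the libraries of both groups apart, and a size below that deviation makes them overlap. The libraries were apart for 13 of the 27 transcripts, where 54.8% of all transcripts were, and they overlapped for 12, with 2 not determined. The median size over the 27 transcripts was 0.21, below the 0.35 of all transcripts. The 27 were also more abundant, with a median level of 1252 normalised estimated counts against 155. Among transcripts with a level of at least 1000, 4 of 16 passed (25.0%), against 20.8% of the 9010 transcripts at that level, and the medians were 0.28 and 0.25.

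**Figure D1:**
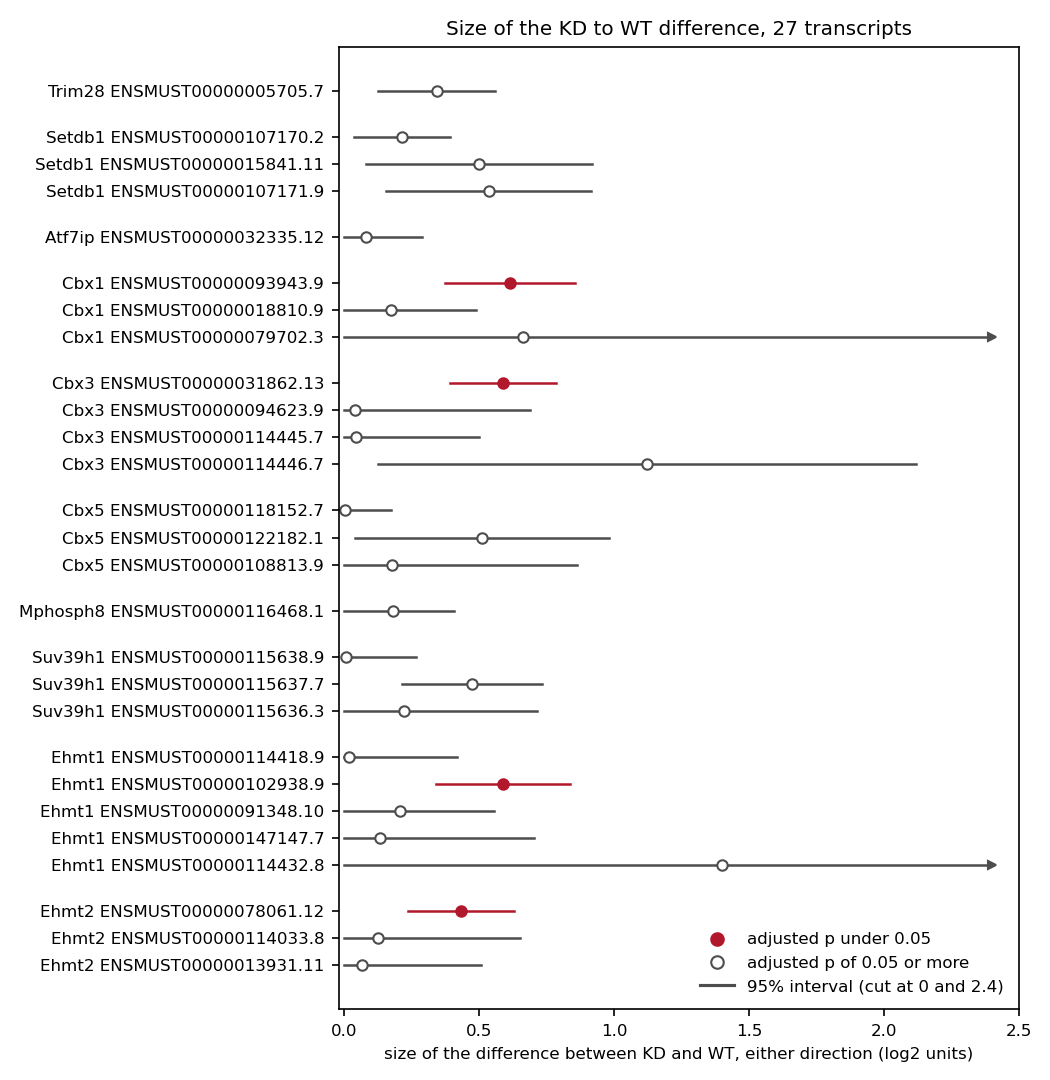
Size of the difference between KD and WT in log2 units, without direction, for the 27 transcripts, grouped by gene and ordered by level within a gene. Points are sizes, lines are 95% confidence intervals cut at 0 and 2.4, and filled red points passed at an adjusted p under 0.05. The 4 that passed lie between 0.43 and 0.62, and the least abundant isoforms of *Cbx1* and *Ehmt1* have the widest intervals.

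Summed over tested isoforms and divided by transcript length, *Cbx3* had the highest level of the 10 genes, at 5535 normalised estimated counts per kilobase, followed by *Trim28* at 3679.5. *Ehmt2*, *Cbx5*, *Cbx1* and *Setdb1* came next at 2974, 2798, 2681 and 2596 per kilobase. Neighbours within these 4 were separated by at most 0.09 on the log2 scale. This was less than the standard deviation over the 4 libraries of the top isoform of *Ehmt2* (0.25), *Cbx1* (0.36) and *Setdb1* (0.13). For *Cbx5* that deviation was 0.03, below the gaps of 0.09 to *Ehmt2* and 0.06 to *Cbx1*. Lower levels per kilobase were found for *Suv39h1* (1117), *Mphosph8* (817), *Ehmt1* (589) and *Atf7ip* (457), with 1.22 on the log2 scale between *Suv39h1* and *Setdb1*. Outside the group of 4, neighbours were at least 0.31 apart, above the standard deviation of the top isoform of either gene. All 10 genes were well expressed by their summed counts, which exceeded those of 77.2% of genes for *Mphosph8* and of 98.0% for *Cbx5*. The order below *Trim28* changed when only the most abundant isoform of each gene was used. *Cbx1* (2253), *Setdb1* (1970.5) and *Cbx5* (1934) were then followed by *Ehmt2* at 1216 per kilobase, *Mphosph8* at 817 came before *Suv39h1* at 516, and *Ehmt1* at 236 was below *Atf7ip*.

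**Figure D2:**
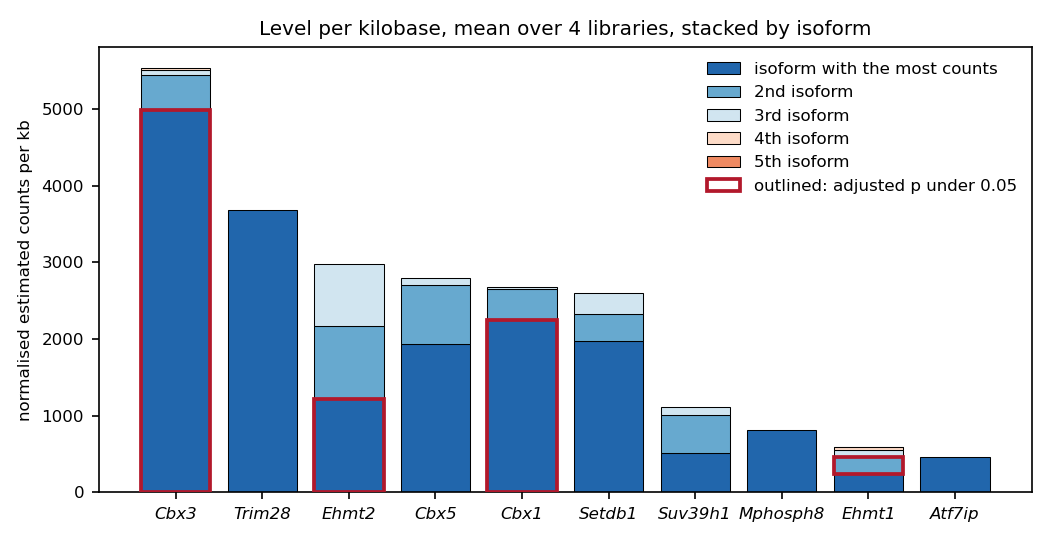
Level per kilobase of each gene, in normalised estimated counts per kilobase as the mean over all 4 libraries, stacked by isoform from the most abundant at the bottom. Red outlines mark the isoforms that passed the test, which hold most of the level of *Cbx3* and *Cbx1* but a minority of that of *Ehmt2* and *Ehmt1*. *Cbx3* is highest at 5535 and, with isoforms summed, *Atf7ip* is lowest at 457; by the most abundant isoform alone *Ehmt1* is lowest, at 236.

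In the KAP1 and SETDB1 module, none of 5 transcripts passed by limma's variance moderation, against 9.68% of all transcripts. An unadjusted p under 0.05 was found for 4 of the 5, and for 9656 of all 34200. All 5 had a level of at least 1000, where 20.8% of all transcripts passed and 4392 of 9010 had such a p. Alternative settings gave 0 to 3 calls in the module and 10 to 6336 in the whole table, against 3312 in the test used here. *Trim28*, the scaffold that joins zinc finger proteins to SETDB1 and HP1, had a single tested transcript, ENSMUST00000005705.7 (chr7:13024152-13031035, GRCm38, plus strand, 17 exons). Its level was 11940.1 normalised estimated counts, and it differed by 0.34 (interval 0.13 to 0.56, 1.27-fold). The libraries were apart, as for 71.7% of all transcripts at a level of at least 1000. The adjusted p of *Trim28* was 0.0720. The transcript passed in 3 of the 6 alternative settings of the test. In those 3, 4965 to 6336 transcripts of the whole table passed.

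*Setdb1*, the H3K9 methyltransferase of the module, was represented by 3 isoforms on chromosome 3, each with 22 exons. The dominant isoform, ENSMUST00000107170.2, held 75.9% of the counts of these 3 at a level of 9107, and differed by 0.21 (interval 0.04 to 0.39, adjusted p = 0.125). ENSMUST00000015841.11, with a different first exon, had a level of 1636 and a size of 0.50 (adjusted p = 0.128). ENSMUST00000107171.9 had a level of 1252 and a size of 0.54 (interval 0.16 to 0.92, adjusted p = 0.0909). In all 3 the libraries were apart, as for 71.7% of all transcripts at a level of at least 1000, and none passed. This last isoform uses a splice site that leaves out 3 coding bases, shown in capitals in the transcript sequence of the dominant isoform, since these bases and the first exon are where the isoforms differ (chr3:95340063-95340065, minus strand).
Setdb1 ENSMUST00000107170.2: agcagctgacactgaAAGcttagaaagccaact

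*Atf7ip*, which encodes the cofactor of SETDB1, had 1 tested transcript, ENSMUST00000032335.12, at a level of 3680.5. Its size was 0.08 with an interval that reached 0.29 and included no difference (adjusted p = 0.573). Among the 5 transcripts of the module it was the one whose libraries could not be placed as apart or overlapping.

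Of the HP1 genes, *Cbx1* and *Cbx3* each had 1 transcript that passed, in both cases the dominant isoform, and *Cbx5* had none. Thus 2 of 10 transcripts passed, against 9.68% of all transcripts. Both calls lay at a level of at least 1000, where 20.8% of all transcripts passed. The only other HP1 transcript at that level, the dominant one of *Cbx5*, did not pass. *Cbx1*, encoding HP1β, had 3 tested isoforms on chromosome 11. ENSMUST00000093943.9 (chr11:96789159-96808640, plus strand) held 78.8% of the counts at a level of 2818 and differed by 0.62 (interval 0.37 to 0.86, 1.53-fold, adjusted p = 0.0313), with the libraries apart. It encodes 185 codons, and its last coding exon carries 142 coding bases that neither other isoform holds (chr11:96806616-96806757). These bases are shown because they separate the isoform that passed from those that did not.
Cbx1 ENSMUST00000093943.9: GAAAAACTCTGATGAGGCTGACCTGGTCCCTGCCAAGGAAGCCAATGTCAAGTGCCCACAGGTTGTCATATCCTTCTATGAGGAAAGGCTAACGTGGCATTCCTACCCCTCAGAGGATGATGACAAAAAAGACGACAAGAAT

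ENSMUST00000018810.9, which reads into an intron and codes for 138 codons, had a level of 740.3 and a size of 0.17, with an interval that reached 0.49 and included no difference (adjusted p = 0.412). ENSMUST00000079702.3, of 150 codons, lay at 20.02 normalised estimated counts, where an interval reaching 3.45 left its size of 0.66 undetermined. A difference between isoforms could not be tested without directions, in this gene or the others.

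*Cbx3*, encoding HP1γ, had 4 tested isoforms on chromosome 6. ENSMUST00000031862.13 (chr6:51470530-51483704, plus strand) held 93.7% of the counts at a level of 9422 and differed by 0.59 (interval 0.39 to 0.79, 1.50-fold). Its adjusted p of 0.0254 was the lowest of the 27 transcripts, and its libraries were apart. ENSMUST00000094623.9 encodes the same 183 codons from another first exon and with an earlier 3′ end, and had a level of 495 and a size of 0.04 with an interval that reached 0.69 (adjusted p = 0.940). ENSMUST00000114445.7, which skips an inner exon and codes for 71 codons, had a level of 108 and a size of 0.05 (adjusted p = 0.897). The libraries of both overlapped. ENSMUST00000114446.7, at a level of 33.9, had a size of 1.12 with an interval of 0.12 to 2.12 (adjusted p = 0.142), and its libraries were apart. Its standard deviation from read assignment was 2.06, however, against a residual one of 0.43. With the residual variance kept at or above that of read assignment, its adjusted p was 0.505.

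*Cbx3* has processed copies elsewhere in the genome, and only 67.6% of the 31-base words of its dominant isoform occurred in no other annotated gene. The copies and overlapping genes that were tested were scarce. *Gm49164*, which shares 547 words, had a level of 42.2 and a size of 0.20 (adjusted p = 0.793), and *Cbx3-ps6*, which shares 491, had a level of 3.53 (adjusted p = 0.497). Whether reads of other copies were assigned to *Cbx3* was not tested, and its values are uncertain to that extent.

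*Cbx5*, encoding HP1α, had the most abundant transcript of the 27 and the smallest size. ENSMUST00000118152.7 (chr15:103191544-103239816, minus strand) held 93.4% of the gene's counts at a level of 17022.5 and differed by 0.004, with an interval that reached 0.17, or 1.13-fold (adjusted p = 0.975). Its KD and WT libraries overlapped. ENSMUST00000122182.1 encodes the same 191 codons and had a level of 892 and a size of 0.51 (interval 0.04 to 0.98, adjusted p = 0.151), with the libraries apart. ENSMUST00000108813.9, at a level of 316, had a size of 0.18 (adjusted p = 0.712).

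*Mphosph8* encodes MPP8, the chromodomain subunit of the HUSH complex, which silences retroelements and works with SETDB1. Its tested transcript, ENSMUST00000116468.1, had a level of 2399.7 and a size of 0.18, with an interval that reached 0.41 and included no difference (adjusted p = 0.253). The libraries were nevertheless apart, as they were for 54.8% of all transcripts and for 71.7% of those with a level of at least 1000.

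**Figure D3:**
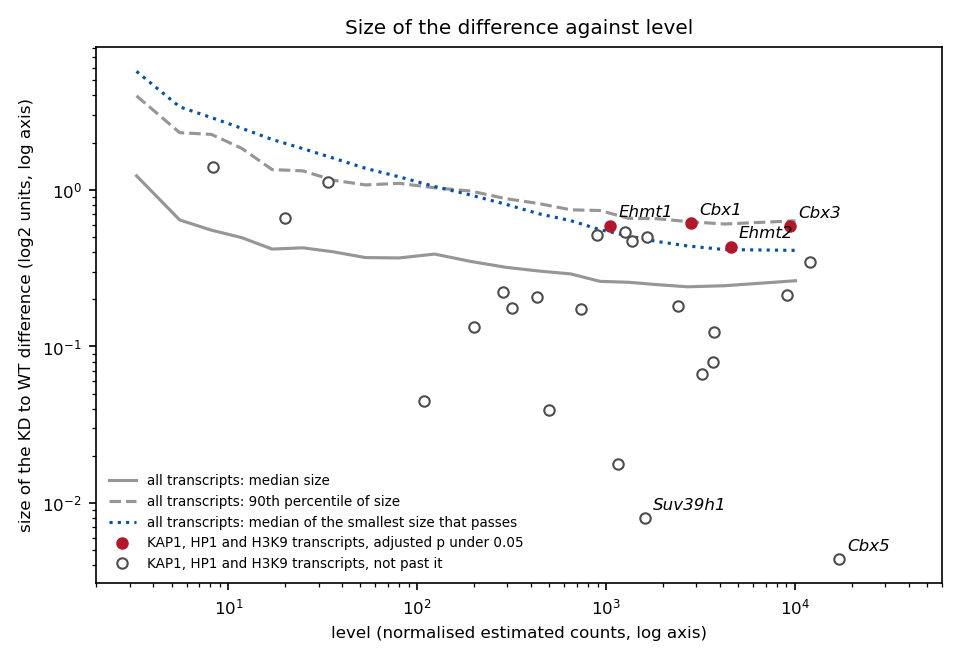
Size of the KD to WT difference in log2 units against level in normalised estimated counts, both on log axes. Grey lines give the median and the 90th percentile of size of all transcripts in 20 classes of level, the blue dotted line the median of the smallest size that would pass, and points the 27 transcripts, filled red where they passed. The 4 red points have levels of 1051 to 9422, and the points for *Suv39h1* and *Cbx5* with the smallest sizes have levels of 1607 and 17022.5.

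*Suv39h1*, the H3K9 methyltransferase of pericentromeric heterochromatin, had 3 tested isoforms on chromosome X. None passed by limma's variance moderation, against 9.68% of all transcripts. An unadjusted p under 0.05 was found for 1 of the 3, and for 9656 of all 34200. ENSMUST00000115638.9 held 49.1% of the counts at a level of 1607, and differed by 0.01 with an interval that reached 0.27 (adjusted p = 0.971), the libraries overlapping. ENSMUST00000115637.7, with 42.1% of the counts and a level of 1377, differed by 0.47 (interval 0.21 to 0.73, 1.39-fold, adjusted p = 0.0544), the libraries apart. It passed in 4 of the 6 alternative settings of the test. In those 4, 3843 to 6336 transcripts of the whole table passed, against 3312 in the test used here. The 2 isoforms have separate first exons with their own start codons, given in capitals up to the end of the exon with the bases around them in lower case (chrX:8074544-8074562 and chrX:8074116-8074137, minus strand).
Suv39h1 ENSMUST00000115638.9: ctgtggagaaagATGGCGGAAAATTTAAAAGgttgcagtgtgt
Suv39h1 ENSMUST00000115637.7: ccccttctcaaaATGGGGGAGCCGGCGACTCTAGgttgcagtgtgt

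ENSMUST00000115636.3, a shorter form of 286 codons, had a level of 285 and a size of 0.22 (adjusted p = 0.496). Between 71.8% and 77.8% of the 31-base words of the 3 isoforms occurred in no other gene, the largest overlap being with *Gm14820*, which had no tested transcript. Reads shared with that gene cannot be told apart here, and its part in the values was not tested.

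Of the 8 transcripts of *Ehmt1* and *Ehmt2*, 2 passed, against 9.68% of all transcripts. Both calls lay at a level of at least 1000, where 20.8% of all transcripts passed. The other *Ehmt2* isoforms and the most abundant *Ehmt1* isoform also lay at that level and did not pass. *Ehmt2*, encoding G9a, had 3 tested isoforms on chromosome 17 of like abundance. ENSMUST00000078061.12 (chr17:34898499-34914047, plus strand) held 39.6% of the counts at a level of 4557 and differed by 0.43 (interval 0.24 to 0.63, 1.35-fold, adjusted p = 0.0391), its libraries apart. ENSMUST00000114033.8 (level 3723) had a size of 0.12 with an interval that reached 0.65 (adjusted p = 0.736). ENSMUST00000013931.11 (level 3216) had a size of 0.07 with an interval that reached 0.51 (adjusted p = 0.836). Both had overlapping libraries and residual standard deviations of 0.29 and 0.23, against 0.06 for the isoform that passed. They hold a coding exon of 102 bases, 34 codons, that the isoform that passed skips (chr17:34905610-34905711), shown in capitals between the ends of its neighbours.
Ehmt2 ENSMUST00000114033.8: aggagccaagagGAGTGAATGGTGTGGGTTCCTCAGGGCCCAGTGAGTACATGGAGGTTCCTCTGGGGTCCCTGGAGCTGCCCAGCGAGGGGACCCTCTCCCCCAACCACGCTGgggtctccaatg

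*Ehmt1*, encoding GLP, the partner of G9a, had 5 tested isoforms on chromosome 2. ENSMUST00000102938.9 (chr2:24791157-24919591, minus strand), with 36.9% of the counts and a level of 1051, differed by 0.59 (interval 0.34 to 0.84, 1.50-fold, adjusted p = 0.0347), its libraries apart. The most abundant isoform, ENSMUST00000114418.9, held 40.7% of the counts at a level of 1158 and differed by 0.02 with an interval that reached 0.42 (adjusted p = 0.957), its libraries overlapping. These isoforms start at different first exons and also differ inside the coding sequence. An exon of 144 bases is present in the isoform that passed and skipped by ENSMUST00000114418.9 (chr2:24840636-24840779), and 21 bases at an exon's start are in ENSMUST00000114418.9 and not in the isoform that passed (chr2:24863909-24863929). Both stretches are given in capitals.
Ehmt1 ENSMUST00000102938.9: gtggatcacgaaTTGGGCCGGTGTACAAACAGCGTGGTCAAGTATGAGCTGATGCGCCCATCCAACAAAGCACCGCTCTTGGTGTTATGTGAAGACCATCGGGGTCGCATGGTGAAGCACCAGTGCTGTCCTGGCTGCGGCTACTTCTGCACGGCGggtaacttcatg
Ehmt1 ENSMUST00000114418.9: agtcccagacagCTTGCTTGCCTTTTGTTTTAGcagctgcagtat

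ENSMUST00000091348.10 shares that exon and lacks the 21 bases like the isoform that passed. It had a level of 429 and a size of 0.21, with an interval that reached 0.56 and included no difference (adjusted p = 0.383). ENSMUST00000147147.7, at a level of 199, had a size of 0.13 (adjusted p = 0.738), and ENSMUST00000114432.8, at 8.24, was too scarce for a size to be read, with an interval that reached 7.42. No 31-base word of ENSMUST00000102938.9 was its own among the tested isoforms, and 0.8% of those of the *Ehmt2* isoform that passed were. The counts of both isoforms thus rest on how reads were divided between isoforms, and the part of that division in the differences was not tested. For the *Cbx1* and *Cbx3* transcripts that passed, 22.8% and 9.2% of the words were in no other tested isoform. For the *Setdb1* isoforms, in order of level, these shares were 0.0%, 1.4% and 0.7%. Their counts thus rest on the same division of reads.

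Other genes of H3K9 silencing were taken as a list of 39, of which 37 had tested transcripts. Among 91 transcripts, 12 passed (13.2%, against 9.68% of all transcripts), in 11 genes, and the median size was 0.28 against 0.35 over all transcripts. These transcripts were more abundant than most, with a median level of 815 against 155. Among those with a level of at least 100, 10 of 73 passed (13.7%), against 15.6% of all transcripts at that level, and the median sizes were 0.25 and 0.28. None of the 12 passed without a trend or with no borrowing of variance. HUSH subunits other than MPP8 had 0 of 7 transcripts past the test by limma's variance moderation, and partners of G9a and GLP had 0 of 6. The share over all transcripts was 9.68%, and it was 15.6% at a level of at least 100, where all transcripts of these roles lay. An unadjusted p under 0.05 was found for 3 of the 7 and 4 of the 6, and for 9656 of all 34200. Across the 6 alternative settings, 0 or 1 transcript of the HUSH subunits and 0 to 3 of the G9a and GLP partners passed. Of the whole table, 10 to 6336 transcripts did.

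Of the other H3K9 methyltransferases, 1 of 10 transcripts passed (10.0%, against 9.68% of all transcripts). It was ENSMUST00000060618.12 of *Suv39h2*, the paralogue of *Suv39h1*, with a level of 149.7 and a size of 1.29 (2.45-fold, adjusted p = 0.0238). The more abundant *Suv39h2* transcript, of level 508, had a size of 0.53 and did not pass (adjusted p = 0.0673). Among partners of KAP1 and the SUMO pathway, which modifies KAP1, 3 of 24 passed (12.5%, against 9.68% of all transcripts). They were a *Sumo2* transcript of level 207 with a size of 1.03 (adjusted p = 0.0416), a *Zfp809* transcript of level 286 with a size of 0.99 (adjusted p = 0.0400), and an *Atf7ip2* transcript. The *Sumo2* transcript held 1.12% of the gene's counts, and the dominant one, of level 18015, had a size of 0.18 and did not pass (adjusted p = 0.239). The most abundant *Zfp809* transcript, of level 519, had a size of 0.44 and did not pass either (adjusted p = 0.0845). *Zfp809* encodes a KRAB zinc finger protein that brings KAP1 to retroviral DNA. The *Atf7ip2* transcript had a level of 2.85, and its size of 5.49 (adjusted p = 0.0309) depends on the 0.5 added before the log. It held 3.64% of the gene's counts. The other *Atf7ip2* transcripts, of levels 51.0 and 24.4, had sizes of 0.01 and 0.59 and did not pass (adjusted p = 0.990 and 0.342).

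Partners of HP1 and genes of heterochromatin assembly had 4 of 18 transcripts past the test (22.2%, against 9.68% of all transcripts), at a median level of 1377. All 4 calls lay at a level of at least 100, where 15.6% of all transcripts passed. Of the 18, only an *Atrx* transcript lay below that level. *Lbr*, encoding the lamin B receptor that binds HP1, had a level of 5057 and differed by 0.91 (interval 0.73 to 1.08, 1.88-fold, adjusted p = 0.0160). *Pogz*, encoding an HP1-binding zinc finger protein, had a transcript of level 144 with a size of 0.88 (adjusted p = 0.0417). This *Pogz* transcript held 4.77% of the gene's counts and did not pass when its residual variance was kept at or above that of read assignment (adjusted p = 0.0845). The abundant *Pogz* transcripts, of levels 1784 and 1096, had sizes of 0.23 and 0.11 and did not pass (adjusted p = 0.157 and 0.482). *Hells*, encoding a chromatin remodeller, had a level of 8152 and a size of 0.53 (adjusted p = 0.0279). The dominant transcript of *Atrx*, whose protein deposits histone H3.3 with DAXX in heterochromatin, had a level of 8579 and a size of 0.37 (adjusted p = 0.0363), and the other, of level 18.5, did not pass (adjusted p = 0.188).

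Of the H3K9 demethylases, 4 of 26 transcripts passed (15.4%, against 9.68% of all transcripts). At a level of at least 100, 15.6% of all transcripts passed, and 1 of these 4 calls and others of the 26 transcripts lay below that level. *Kdm4a* had 2, of levels 6999 and 2748, and both differed by 0.55 (adjusted p = 0.0278 and 0.0288). The other *Kdm4a* transcripts, of levels 728 and 147, had sizes of 0.03 and 0.19 and did not pass (adjusted p = 0.877 and 0.631). *Kdm4c* had 1 that passed, with a level of 2826 and a size of 0.39 (adjusted p = 0.0453). The largest size was that of a *Jmjd1c* transcript, 6.94 (adjusted p = 0.0212), at a level of only 5.04, which again depends on the value added before the log. This transcript held 0.144% of the gene's counts. The abundant *Jmjd1c* transcripts, of levels 1863 and 1623, had sizes of 0.09 and 0.25 and did not pass (adjusted p = 0.611 and 0.238).

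**Figure D4:**
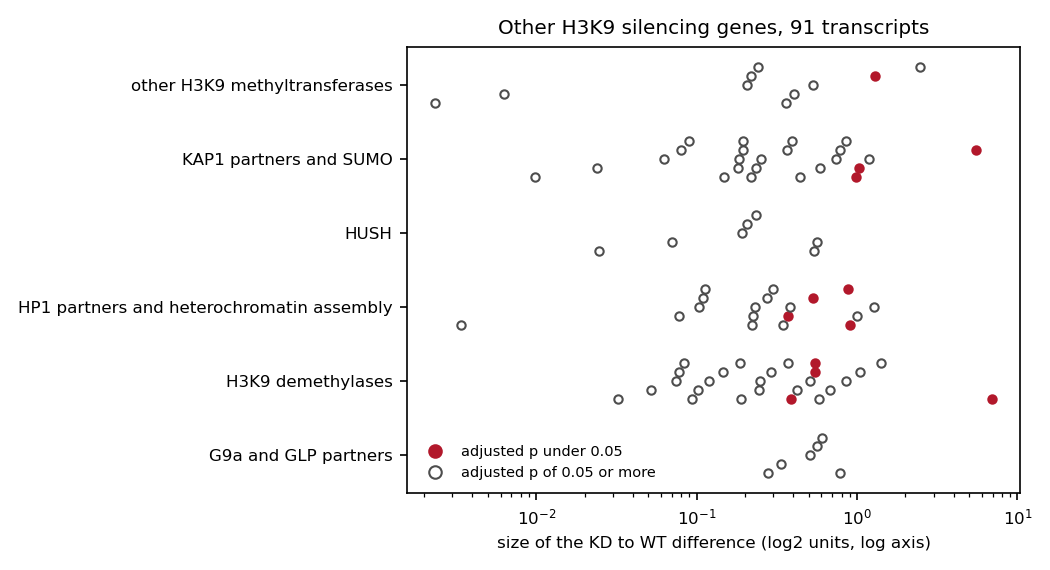
Size of the KD to WT difference in log2 units, on a log axis, for 91 transcripts by role. They are those of other H3K9 silencing genes and of H3K9 demethylases. Each point is a transcript and filled red points passed at an adjusted p under 0.05; points are spread vertically within a role only for legibility. The 12 that passed lie in 4 of the 6 roles, and the points at 5.49 and 6.94 are scarce transcripts of *Atf7ip2* and *Jmjd1c*.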

How the data were processed

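RNA was measured in 2 KD and 2 WT libraries, grouped by their labels. The authors trimmed reads with BBDuk, quantified transcripts with Kallisto and ran Sleuth. The submitters' processing notes also name bcl2fastq (2.17), HISAT2 and GRCm38. The transcript index is not given in the sources used here.

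The authors deposited, for each transcript, a mean and variances on the natural log scale, of normalised estimated counts plus 0.5. Deposited columns with effects, standard errors, test statistics, p-values and q-values of the authors' own comparison, and the gene table that holds such values only, were not used. Direction was therefore not analysed here.

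The squared difference between group means was computed as 3 times the variance over the 4 libraries less 2 times the residual variance (2 degrees of freedom). It was tested with a moderated F test (limma 3.58.1 in R 4.3.3, squeezeVar with a trend on the mean, 4.67 degrees of freedom in all) and Benjamini-Hochberg adjustment over all 34200 transcripts. The calculation was checked on simulated data. Level is the exponential of the mean, less 0.5. Positions and sequences came from GENCODE M21 (GRCm38), in which all 27 transcripts had the same version. Sequences were cut into 31-base words to find sharing between genes.

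The genes, the list of other silencing genes and demethylases, and the rule for naming (every transcript of the 10 genes, and from the list the called transcripts by role) were chosen with earlier results of these data known. Alternatives were other ways of borrowing variance, a limit on the variance, a level of at least 100 and a threshold of 0.1. Figures were drawn with matplotlib 3.10.9.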

Additional observations from a re-analysis of the deposited data

How the results depend on the processing

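Of all transcripts, 3312 passed. Without a trend 127 did and with no borrowing of variance 10 (7132 at an unadjusted p under 0.05), while 3843 passed with robust borrowing, 4996 with the residual variance kept at or above that of read assignment, 4965 at a level of at least 100, and 6336 at an adjusted p under 0.1. For the 27 transcripts the 4 calls became 0 without a trend, 0 with no borrowing, 5 with robust borrowing, 9 with the limit on the variance, 7 at a level of at least 100 and 7 at an adjusted p under 0.1. The same 4 transcripts were retained in each of the last 4 settings. *Suv39h1* ENSMUST00000115637.7 was added in all of these, *Trim28* and *Setdb1* ENSMUST00000107171.9 in all but robust borrowing, and *Setdb1* ENSMUST00000015841.11 and *Cbx5* ENSMUST00000122182.1 with the limit on the variance. For the list of other silencing genes and demethylases the 12 calls became 0, 0, 15, 19, 19 and 24 in the same order. The size of 1.99 for *Setd2* had an adjusted p of 0.0537 without a trend and 0.103 with no borrowing. The cause of these shifts was not tested. With the most abundant isoform alone, the level per kilobase moved to 1970.5 for *Setdb1*, 1934 for *Cbx5*, 516 for *Suv39h1*, 236 for *Ehmt1* and 1216 for *Ehmt2*. No paired analysis was possible because values of single libraries were not used, and for the same reason leaving out each replicate in turn and the replicate block were not run.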
